A study of Mus musculus with 43 samples.

Results

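The collagen genes of mouse inguinal white adipose tissue were followed through 43 poly(A) RNA libraries that fall into 9 groups. Every protein-coding gene whose symbol is Col, a number, the letter a and a number was taken, which gave 42 genes out of the 22622 gene identifiers of each deposited table. They were sorted by the form of the assembled protein into 11 fibrillar collagens, 7 network collagens, 9 FACIT collagens, which decorate the surface of fibrils, and 15 others. Another 2 genes that meet the rule in the mouse annotation were not analysed here.

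The libraries come in 5 tables that were normalized separately, each holding 1 comparison. Mice with floxed Bcl6 and Prx1-cre (n = 4) and mice with floxed Bcl6 alone (n = 4) were compared at 9 weeks and 4 C, and the same genotypes (n = 8 and n = 7) were compared at P25 and 22 C. C57BL/6J wild-type mice at 9 weeks were compared at 4 C (n = 4) and at 22 C (n = 4). Wild-type mice at P28 were kept at 30 C (n = 4) or at 22 C (n = 4), and mice with floxed TrkA and Th-cre at P28 and 22 C (n = 4) were set against the same 4 wild-type libraries at 22 C. The Bcl6 controls thus carry the floxed alleles without Cre, whereas the TrkA controls are wild type and carry neither the floxed allele nor Cre. Prx1-cre is active in limb-bud mesenchyme, the source of inguinal fat progenitors among other cells, so it is not limited to adipocytes; Th-cre is active in catecholamine-making cells such as sympathetic neurons. Bcl6 encodes a transcriptional repressor. No label says that the libraries of a group come from separate animals, so every p-value measures the spread between these libraries, part of which may be technical.

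Collagens are the main structural proteins of the extracellular matrix. Each molecule is a rope of chains wound around each other, and glycine at regular spacing lets the chains pack. Fibrillar collagens such as type I, made from Col1a1 and Col1a2, and type III, made from Col3a1, form the fibres between cells, and type V sets their diameter. Type IV collagen forms the sheet-like network of basement membranes, which in fat surround each adipocyte and each capillary, and type VI forms beaded filaments next to the basement membrane. In adipose tissue fibroblasts and adipocyte progenitors make most fibrillar collagen, while adipocytes and endothelial cells contribute type IV, and collagen type VI and XV are known components of the pericellular matrix of fat cells.

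The glycine pattern can be read in the genes themselves, and short exons of 54 bases are shown for 4 fibrillar collagens on which the results turn, with capitals for the glycine codon that opens each group of 3 codons (mm10, longest coding transcript of the gene, read 5′ to 3′ on the coding strand).
Col1a1 exon 8, chr11:94939904-94939957, strand plus: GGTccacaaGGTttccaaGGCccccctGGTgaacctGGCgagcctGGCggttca
Col1a2 exon 8, chr6:4515481-4515534, strand plus: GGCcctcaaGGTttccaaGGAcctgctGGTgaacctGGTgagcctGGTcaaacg
Col3a1 exon 6, chr1:45325360-45325413, strand plus: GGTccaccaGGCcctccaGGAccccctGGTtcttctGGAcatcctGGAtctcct
Col5a2 exon 6, chr1:45434892-45434945, strand minus: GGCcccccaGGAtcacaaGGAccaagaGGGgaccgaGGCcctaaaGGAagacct

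In each of these exons the 18 codons formed 6 groups of 3, and every group opened with a glycine codon. The Col1a1 exon held 1 more glycine codon outside that spacing, 7 in all, and the other exons held none outside it. The 11 fibrillar genes held between 21 and 33 coding exons of exactly 54 bases, with a median of 29. The median was 14 in the FACIT genes, 3 in the other collagens and 1 in the network genes. In the fibrillar genes a median of 83.3% of coding exons had a length divisible by 9, the length of 1 glycine-led triplet of codons. Col1a1 lies at chr11:94936224-94953042, Col1a2 at chr6:4505618-4541543 and Col3a1 at chr1:45311538-45349706, next to Col5a2 at chr1:45374331-45503282. Col4a1 at chr8:11198423-11312889 and Col4a2 at chr8:11312805-11449287 stand head to head on opposite strands, and these gene spans overlap by 85 bases. Between the transcript starts used in the RefSeq promoter table the overlap is 22 bases, printed here in plus-strand order:
Col4a1 and Col4a2 overlap, chr8:11312805-11312826: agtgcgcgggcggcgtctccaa

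Normalized counts summed to 22380482 to 26488234 per library in the adult Bcl6 table, 9675799.7 to 11656939 at P25, 7003069.8 to 8885442 in the adult wild-type table, 4822232 to 5361985 for 30 C and 22 C at P28, and 4262412 to 4703629.6 where TrkA-flox Th-cre and wild-type mice were set together. Whole reads could not be recovered from these values, so the sequencing depth of a library is unknown. The targeted gene went against the label in the Bcl6 crosses: Bcl6 averaged 11609 ± 2338 normalized counts in Prx1-cre libraries and 1995 ± 392 in Bcl6-flox libraries at 9 weeks (SD, n = 4 each), and 2714 ± 584 normalized counts in Prx1-cre libraries and 825 ± 340.4 in Bcl6-flox libraries at P25 (SD, n = 8 and 7). On the log2 scale that is 2.54 ± 0.17 (adjusted p = 0.000209) at 9 weeks and 1.78 ± 0.23 (adjusted p = 0.000235) at P25, and gene totals do not show which exons were read, so the group is written here as the libraries labelled Prx1-cre. The directions given for the Bcl6 crosses therefore rest on the labels. Marker scores, the mean log2 value of a list of cell type markers in a library, set some libraries apart. At 9 weeks, Bcl6-flox replicate 3 had a skeletal muscle score of 13.64 and the lowest score of mammary and skin epithelium in its group, 7.30. At P25, 6 of 15 libraries had a fibroblast and progenitor score above 9.7, namely Prx1-cre M1, F2, F3 and F4 and Bcl6-flox M2 and F4 (codes of the table's columns); the highest score among the other 9 was 9.56. In the adult wild-type table Xist was high in replicates 3 and 4 of both groups. At P28 it was high in 3 of 4 libraries at 30 C, 2 of 4 wild-type libraries at 22 C and 1 of 4 TrkA-flox Th-cre libraries. Xist status was thus not balanced between the groups of either P28 comparison.

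The part of the RNA taken up by collagen transcripts varied between libraries and between groups. All 42 genes together made up 0.671 to 0.885% in Prx1-cre libraries, against 0.354 to 0.425% in Bcl6-flox libraries at 9 weeks and 4 C, so that the groups did not overlap. At P25 the share was 2.54 to 6.08% in Prx1-cre libraries, against 1.07 to 6.61% in Bcl6-flox libraries, and the libraries with the highest shares in each group were among the 6 with high fibroblast and progenitor scores. In adult wild-type mice it was 0.363 to 0.713% at 4 C, against 0.661 to 2.07% at 22 C, an overlap only between the highest library at 4 C and the lowest at 22 C. At P28 it was 2.26 to 3.70% at 30 C, against 1.80 to 3.70% at 22 C, and 2.39 to 3.35% in TrkA-flox Th-cre libraries, against 1.80 to 3.70% in wild-type libraries. Shares are within a library, but tables were normalized separately and differ in the sum of normalized counts, and no test was made between tables. In bulk tissue, fewer cells of a type and less RNA per cell cannot be told apart.

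**Figure D1:**
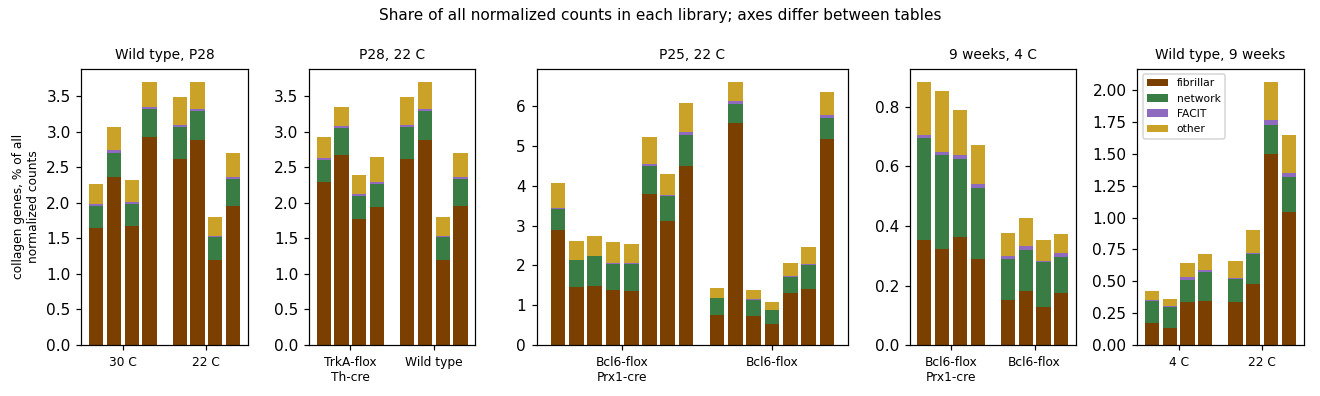
Share of all normalized counts that fell on collagen genes in each library, in percent, stacked by class, with 1 panel per table and its own vertical axis. At 9 weeks and 4 C the 4 libraries labelled Prx1-cre lie between 0.671 and 0.885%, above the 4 Bcl6-flox libraries at 0.354 to 0.425%.

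Fibrillar collagen led the levels per length of transcript in most groups. Col3a1, the type III chain, had the highest mean normalized count per kilobase in every group outside the adult Bcl6 table, and Col4a1, the type IV chain, came first in both groups of that table. In that table Col4a1 stood at 6031 ± 1102 normalized counts per kilobase in Prx1-cre libraries and 2706 ± 531 in Bcl6-flox libraries (SD, n = 4 each). Col3a1 followed at 5032 ± 717 in Prx1-cre libraries and 2623 ± 409.9 in Bcl6-flox libraries, within 1 SD of Col4a1 in each group. In adult wild-type mice Col3a1 reached 1324 ± 562 per kilobase at 4 C and 5292 ± 3222 at 22 C, and Col4a1 1268 ± 153 at 4 C and 1638 ± 272 at 22 C. At 4 C the means of Col3a1 and Col4a1 thus lay within the spread of Col3a1, whereas at 22 C Col3a1 was well ahead of Col4a1. At P25 Col3a1 had 21161 ± 11249 per kilobase in Prx1-cre libraries and 19880 ± 20875 in Bcl6-flox libraries (SD, n = 8 and 7), spreads as wide as the means in the Bcl6-flox group. At P28 it had 9120.4 ± 2516 at 30 C and 9457 ± 3144 at 22 C. Col25a1, a membrane-bound collagen, was listed at 0 in every library of both P28 tables and of the adult wild-type table, and Col2a1, the cartilage collagen, and Col19a1 stayed under the filter on low values in all 5 tables.

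**Figure D2:**
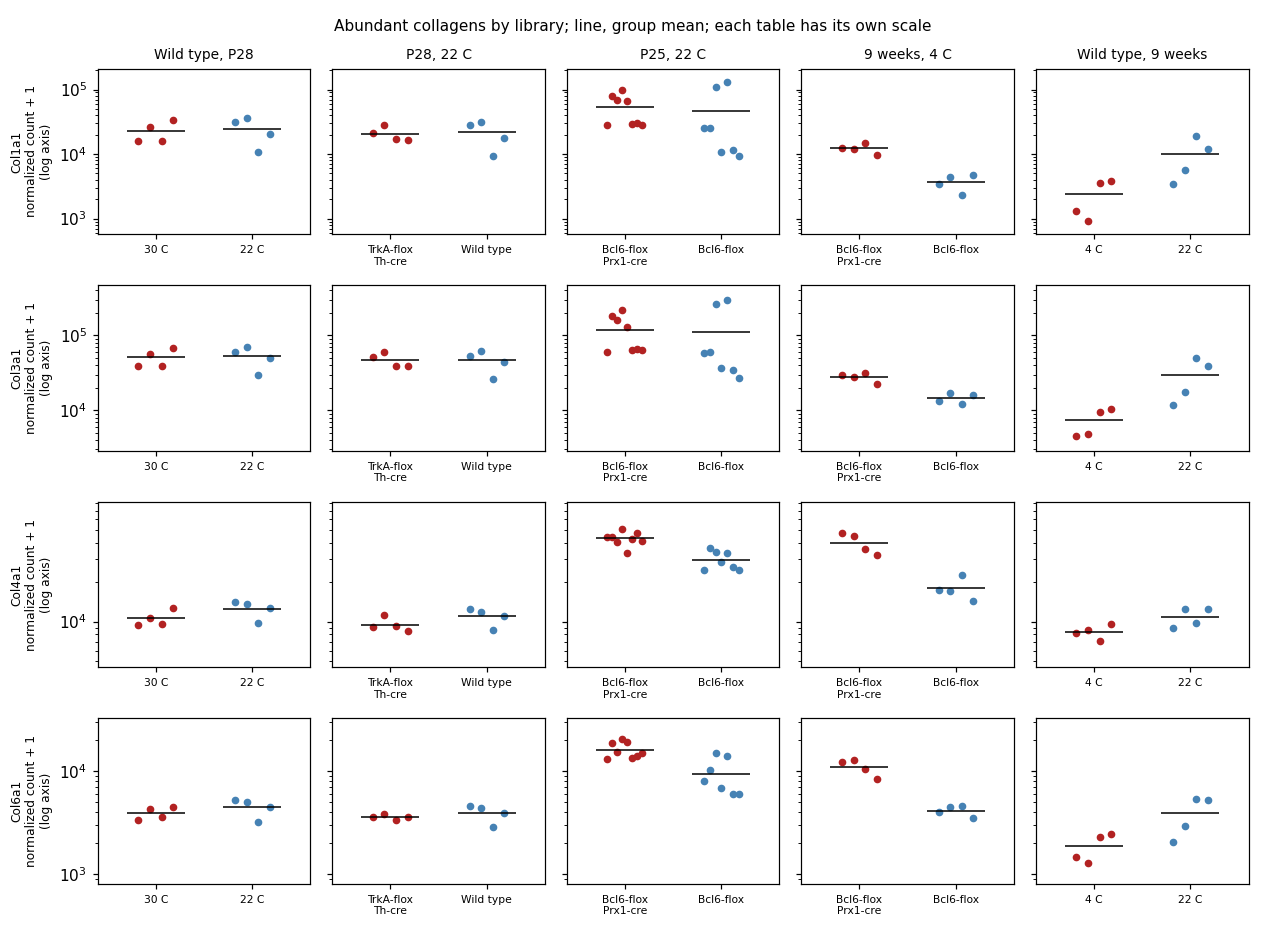
Normalized counts plus 1 on a log axis for Col1a1, Col3a1, Col4a1 and Col6a1 in every library of the 5 tables; points are libraries and the line is the group mean. The groups separate for all 4 genes in the adult Bcl6 table, and overlap widely at P28 and, for Col1a1 and Col3a1, at P25.

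The Prx1-cre genotype was first examined in adult mice kept in the cold. Most of the abundant collagens rose in the libraries labelled Prx1-cre, type I, III, V, VI, IV and XII among them, and Col10a1 and Col11a2 fell. Of 36 collagens tested 14 rose and 2 fell, and the others did not pass (limma on log2(value + 1), Benjamini-Hochberg adjusted p under 0.05). Over all 13496 genes tested, 14.5% passed, 9.01% up and 5.46% down. The median log2 fold change was 0.14 over the 36 collagens, against -0.02 over all genes, and it was 0.84 in the fibrillar, -0.35 in the network, -0.16 in the FACIT and 0.89 in the other collagens. In all 16 called genes the 2 groups did not overlap. These genes were picked by a test on the same values, so their separation adds no support to the calls. No share of separated genes among all genes tested or called is given to set beside it. The same limit holds for called genes in the other comparisons.

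The major fibril chains rose together. Col1a1 had 12420.1, 12178, 14599.7 and 9806 normalized counts in Prx1-cre libraries, against 3382, 4473, 2357 and 4685 in Bcl6-flox libraries. Col1a1 differed by a log2 fold change of 1.75 ± 0.22 (SE; adjusted p = 0.00232). Both partners of the type I molecule separated the groups, with the Prx1-cre libraries on top. Col1a2 had 15769.7, 13998, 17206 and 14366 normalized counts in Prx1-cre libraries, against 6391, 7305, 4693 and 7826 in Bcl6-flox libraries. Col1a2 differed by a log2 fold change of 1.25 ± 0.16 (SE; adjusted p = 0.00237). Type III collagen, which mixes with type I in soft tissue fibres, showed the same order. Col3a1 had 29624, 28165, 31768 and 22437 normalized counts in Prx1-cre libraries, against 13293, 17035, 12114 and 15936 in Bcl6-flox libraries. Col3a1 differed by a log2 fold change of 0.94 ± 0.15 (SE; adjusted p = 0.00513). For all 3 genes each Prx1-cre library lay above each Bcl6-flox library, and Bcl6-flox replicate 3, the muscle-rich library, had the lowest value of Col1a1. The type V chains, which nucleate type I fibrils, moved likewise. Col5a1 ranged over 5238 to 6977 normalized counts in Prx1-cre libraries, against 2998 to 3801 in Bcl6-flox libraries, at 0.86 ± 0.11 (adjusted p = 0.00251). Col5a2 ranged over 5890.4 to 7059 normalized counts in Prx1-cre libraries, against 3134 to 3896 in Bcl6-flox libraries, at 0.82 ± 0.087 (adjusted p = 0.0012). Another type V chain, Col5a3, did not pass, at 0.87 ± 0.26 (adjusted p = 0.0548), with 12924, 11745, 8881 and 6822 normalized counts in Prx1-cre libraries, against 6004, 5033, 7424 and 3632 in Bcl6-flox libraries. The Bcl6-flox value that reached into the Prx1-cre range was that of the muscle-rich replicate 3. Col11a2, a chain of the cartilage-type collagen XI, fell: it had 113, 159, 161 and 147 normalized counts in Prx1-cre libraries, against 245, 257, 178 and 281 in Bcl6-flox libraries. Col11a2 differed by a log2 fold change of -0.72 ± 0.18 (SE; adjusted p = 0.0295). That call was the least firm of the 16, since it passed in 2 of 8 fits with 1 library left out (adjusted p 0.00454 to 0.0875), and missed without Bcl6-flox replicate 1, 2 or 4 and without Prx1-cre replicate 1, 2 or 4. The 13 other called genes that did not owe the filter to 1 group alone passed in all 8 such fits.

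**Figure D3:**
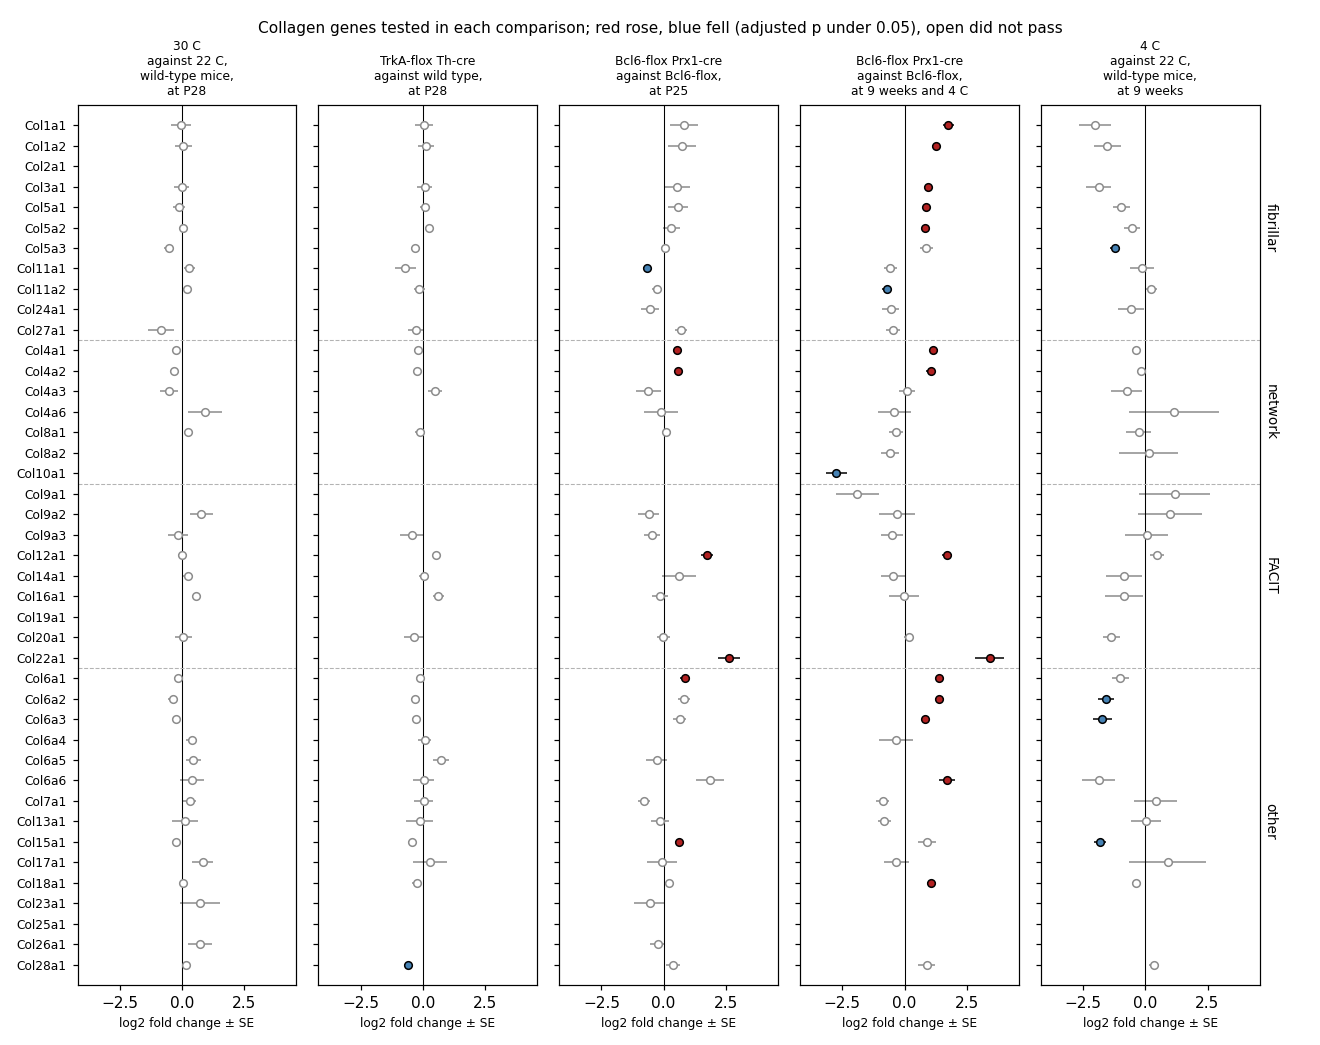
Log2 fold change with its standard error for every tested collagen in the 5 comparisons, by class; red points rose, blue points fell and open points did not pass an adjusted p of 0.05. Red points are most numerous in the adult Bcl6 comparison, with 14, and blue points in the adult wild-type comparison of 4 C with 22 C, with 4.

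Both major type IV chains, 4 type VI chains and Col18a1 rose as well, whereas the network class as a whole had 2 genes up, 1 down and 4 without a call. Col4a1 had 47346, 44615, 35751 and 31871 normalized counts in Prx1-cre libraries, against 17521, 16978, 22746 and 14352 in Bcl6-flox libraries. Col4a1 differed by a log2 fold change of 1.16 ± 0.18 (SE; adjusted p = 0.00469). Col4a2, its partner chain on the opposite strand, ranged over 21653 to 34249.5 normalized counts in Prx1-cre libraries, against 10973 to 16949 in Bcl6-flox libraries, at 1.05 ± 0.18 (adjusted p = 0.00767). Neither type IV chain had a library of one group within the range of the other. Col6a1, a type VI chain, had the smallest adjusted p of the collagens. It had 12389, 12915, 10538 and 8499 normalized counts in Prx1-cre libraries, against 3997, 4492, 4567 and 3544 in Bcl6-flox libraries. Col6a1 differed by a log2 fold change of 1.41 ± 0.14 (SE; adjusted p = 0.00103). Col6a2 ranged over 5579 to 9624 normalized counts in Prx1-cre libraries, against 2162 to 3173 in Bcl6-flox libraries, at 1.41 ± 0.18 (adjusted p = 0.00254). Col6a3 ranged over 4525 to 5222 normalized counts in Prx1-cre libraries, against 2335 to 3292 in Bcl6-flox libraries, at 0.83 ± 0.10 (adjusted p = 0.00237). All 3 chains of the common type VI heterotrimer were therefore higher in every Prx1-cre library than in any Bcl6-flox library. Col6a6, a less common type VI chain, had 91.9, 76.5, 75.96 and 66.2 normalized counts in Prx1-cre libraries, against 30.8, 23.4, 11.3 and 32.3 in Bcl6-flox libraries. Col6a6 differed by a log2 fold change of 1.72 ± 0.32 (SE; adjusted p = 0.0101). Col18a1, a basement membrane collagen whose end fragment is endostatin, ranged over 4337 to 6199.6 normalized counts in Prx1-cre libraries, against 1896 to 3163 in Bcl6-flox libraries, at 1.08 ± 0.17 (adjusted p = 0.00472). Col15a1, its close relative, did not pass, at 0.89 ± 0.36 (adjusted p = 0.133), and with the replicate number as a block it had adjusted p = 0.0309, and Col5a3 had adjusted p = 0.0383; Col15a1 also passed, at adjusted p = 0.0451, without Prx1-cre replicate 4.

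Among FACIT collagens, which bind to the surface of fibrils, Col12a1 had 906, 1409, 1134 and 1213 normalized counts in Prx1-cre libraries, against 427, 407, 243 and 350.4 in Bcl6-flox libraries. Col12a1 differed by a log2 fold change of 1.72 ± 0.20 (SE; adjusted p = 0.00158). The Prx1-cre libraries were all above the Bcl6-flox libraries for Col12a1. Col22a1, known from tissue junctions such as that of muscle and tendon, had 38.3, 27.96, 41.9 and 33.2 normalized counts in Prx1-cre libraries, against 1.11, 1.67, 11.3 and 0.847 in Bcl6-flox libraries. Col22a1 differed by a log2 fold change of 3.42 ± 0.58 (SE; adjusted p = 0.00688). The Bcl6-flox value of 11.3 is that of replicate 3, the muscle-rich library, and even that value lay below all 4 Prx1-cre libraries. Col14a1, the relative of Col12a1 in soft connective tissue, did not pass, at -0.45 ± 0.50 (adjusted p = 0.576), with 288 to 942 normalized counts in Prx1-cre libraries, against 305 to 1306 in Bcl6-flox libraries. Col10a1, best known as the collagen of hypertrophic cartilage, fell: it had 2.41, 5.16, 2.49 and 1.33 normalized counts in Prx1-cre libraries, against 41.8, 26.5, 17.1 and 15.2 in Bcl6-flox libraries. Col10a1 differed by a log2 fold change of -2.74 ± 0.42 (SE; adjusted p = 0.00477). Every Prx1-cre library was below every Bcl6-flox library for Col10a1, at levels far under those of the fibrillar chains. Col10a1 and Col22a1 reached the filter of 10 through 1 group only, so that they could be tested at all because that group was high, and repeated passes in other settings add nothing to their calls.

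The 250 bases before the annotated starts of Col1a2, Col3a1 and Col10a1 are shown because the first pair rose and Col10a1 fell in this comparison; capitals mark matches on the printed strand to the motif TATAAA, the motif CCAAT and the motif GGGCGG (mm10, read 5′ to 3′ on the gene's strand).
Col1a2, chr6:4505368-4505617, strand plus: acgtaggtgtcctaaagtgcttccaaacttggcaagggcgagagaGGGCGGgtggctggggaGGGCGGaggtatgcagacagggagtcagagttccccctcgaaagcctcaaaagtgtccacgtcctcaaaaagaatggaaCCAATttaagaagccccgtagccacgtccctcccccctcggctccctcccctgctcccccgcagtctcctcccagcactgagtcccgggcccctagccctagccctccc
Col3a1, chr1:45311288-45311537, strand plus: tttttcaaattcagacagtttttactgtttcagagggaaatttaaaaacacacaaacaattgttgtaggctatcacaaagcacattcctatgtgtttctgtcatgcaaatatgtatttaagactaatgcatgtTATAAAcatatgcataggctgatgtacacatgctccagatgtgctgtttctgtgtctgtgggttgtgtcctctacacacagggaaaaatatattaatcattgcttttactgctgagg
Col10a1, chr10:34389731-34389980, strand plus: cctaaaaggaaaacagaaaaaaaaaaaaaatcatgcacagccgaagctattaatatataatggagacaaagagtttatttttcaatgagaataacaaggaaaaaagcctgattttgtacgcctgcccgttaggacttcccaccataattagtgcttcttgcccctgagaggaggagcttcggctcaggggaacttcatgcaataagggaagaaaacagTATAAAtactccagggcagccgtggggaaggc

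The Col1a2 window held CCAAT at position -109 and GGGCGG at -205 and -188, counted from the annotated start. TATAAA stood at -32 in Col10a1 and at -117 in Col3a1. In RefSeq promoter windows of 300 bases (GRCm38.p6), searched on both strands, 36 windows of 33 collagen genes were matched and compared with all 32851 windows. TATAAA was in 13.9% of collagen windows and 13.6% of all windows, CCAAT in 33.3% and 37.4%, GGGCGG in 61.1% and 35.7%, and TTCNNNGAA, a motif bound by Bcl6 and by Stat factors, in 5.56% and 8.30%. These matches are a description of letters in a window and of no bound site.

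The genes that make, trim and bind collagen also rose in part, where 9.01% of all genes tested rose and 5.46% fell. Of 24 genes of collagen biosynthesis and secretion 11 rose and none fell (median log2 fold change 0.40), including Sec24d, of the coat that exports procollagen, at 0.97 ± 0.11 (adjusted p = 0.00153), P3h1, a prolyl hydroxylase, at 0.87 ± 0.13 (adjusted p = 0.00384), P4hb, the shared prolyl hydroxylase subunit, at 0.63 ± 0.085 (adjusted p = 0.00301), and Plod1, a lysyl hydroxylase, at 0.46 ± 0.065 (adjusted p = 0.00371). Of 13 processing and crosslinking genes 5 rose (median 0.43), including Adamts2, the procollagen N-proteinase, at 1.77 ± 0.11 (adjusted p = 0.000182), and Lox, lysyl oxidase, at 1.15 ± 0.22 (adjusted p = 0.0113). Of 16 fibril-associated genes 9 rose (median 0.95), with Tnc, tenascin C, at 2.65 ± 0.21 (adjusted p = 0.000348), and Bgn, biglycan, at 1.84 ± 0.24 (adjusted p = 0.00257). Of 15 basement membrane partners of type IV collagen 8 rose and 1 fell (median 0.32); Nid1 and Nid2, the nidogens, were at 1.10 ± 0.15 (adjusted p = 0.00322) and 1.98 ± 0.34 (adjusted p = 0.0074), and Lamc3, a laminin chain, fell, at -0.65 ± 0.11 (adjusted p = 0.00667). Of 7 collagen receptors 2 rose, among them Mrc2, which takes collagen up into cells, at 0.45 ± 0.083 (adjusted p = 0.00975), and of 9 collagen-degrading enzymes 1, Mmp12, a macrophage elastase, at 3.36 ± 0.53 (adjusted p = 0.0051). No gene of these lists other than Lamc3 fell.

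Some cell type markers moved beside these genes. Over all genes tested in this comparison 14.5% passed, 9.01% up and 5.46% down. Of 11 macrophage markers 9 rose, with summed normalized counts of 20943 to 36260 in Prx1-cre libraries, against 12546 to 16325 in Bcl6-flox libraries and none of the markers at 0. Of 15 fibroblast and progenitor markers 1 rose, Pdgfrb, and the score was 9.40 to 10.14 in Prx1-cre libraries, against 9.48 to 10.20 in Bcl6-flox libraries, overlapping between the groups. With the fibroblast and progenitor score as a covariate 15 collagens rose and 2 fell, when 20.1% of all genes passed. Without Bcl6-flox replicate 3 the count of called collagens was 24, where 26% of all genes passed, 13.6% up and 12.5% down, with Col5a3 and Col28a1 added to those that rose and Col7a1, Col8a1, Col9a1, Col9a2, Col9a3 and Col4a6 to those that fell. With all libraries and no covariate, the other lists held few calls. Of 10 endothelial markers 1 rose, of 10 mural markers 1 rose and 1 fell, of 9 Schwann cell markers 1 fell and of 3 cartilage and bone markers 1 rose. The median log2 fold changes of these lists were 0.38, -0.06, 0.06 and -0.36 in that order. None of 10 skeletal muscle markers passed, with summed normalized counts of 181 to 4547 in Prx1-cre libraries, against 2369.7 to 516400 in Bcl6-flox libraries. The part of these cell types in the collagen result was not tested.

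At P25 and 22 C the same genotypes were compared around weaning, and fewer collagens passed. Col12a1 and Col22a1 rose strongly, type IV chains, Col15a1 and Col6a1 rose modestly, and Col11a1 fell. Of 35 collagens tested 6 rose and 1 fell, where 3.53% of all 12738 genes tested passed, 1.56% up and 1.97% down. The median log2 fold change was 0.20 over the collagens, 0.43 in the fibrillar, 0.10 in the network, -0.01 in the FACIT and 0.20 in the other class. Values are given as lowest, median and highest library, for 8 and 7 libraries.

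Col12a1 had 379, 485 and 839.7 normalized counts in Prx1-cre libraries, against 89.5, 136 and 283 in Bcl6-flox libraries. Col12a1 differed by a log2 fold change of 1.75 ± 0.25 (SE; adjusted p = 0.000523). The groups did not overlap, and it passed with each of the 15 libraries left out in turn. Col22a1 had 7.91, 14.1 and 17.7 normalized counts in Prx1-cre libraries, against 0, 1.00 and 9.65 in Bcl6-flox libraries. Col22a1 differed by a log2 fold change of 2.62 ± 0.44 (SE; adjusted p = 0.00267). The highest Bcl6-flox library reached into the Prx1-cre range. The gene reached the filter through the Prx1-cre group only, and with a library left out it could be tested in 8 of 15 fits. Col4a2 had 21701, 25884 and 30890 normalized counts in Prx1-cre libraries, against 14752, 17097 and 20567 in Bcl6-flox libraries. Col4a2 differed by a log2 fold change of 0.57 ± 0.10 (SE; adjusted p = 0.00477), with no overlap of the groups. Col4a1 had 33352, 43473 and 51067 normalized counts in Prx1-cre libraries, against 24504, 28392 and 36275 in Bcl6-flox libraries. Col4a1 differed by a log2 fold change of 0.54 ± 0.13 (SE; adjusted p = 0.0235). Its groups overlapped, unlike those of Col4a2. Col15a1, a basement membrane collagen, had 9732, 11405 and 13934 normalized counts in Prx1-cre libraries, against 5468, 7333 and 10740 in Bcl6-flox libraries. Col15a1 differed by a log2 fold change of 0.62 ± 0.14 (SE; adjusted p = 0.0253). Its ranges met as well. Col6a1 had 13316, 15228 and 20499 normalized counts in Prx1-cre libraries, against 6028, 8143 and 15031 in Bcl6-flox libraries. Col6a1 differed by a log2 fold change of 0.85 ± 0.20 (SE; adjusted p = 0.0291). Col11a1, the partner of Col11a2, had 25.6, 40.3 and 51.3 normalized counts in Prx1-cre libraries, against 51.1, 59.6 and 79.9 in Bcl6-flox libraries. Col11a1 differed by a log2 fold change of -0.67 ± 0.16 (SE; adjusted p = 0.0292). In these last 4 genes the groups overlapped, and each lost its call in some of the 15 fits that leave a library out: Col4a1 passed in 11, Col15a1 and Col11a1 in 10 and Col6a1 in 8. The highest adjusted p in those fits was 0.0628 for Col4a1, 0.0641 for Col15a1, 0.0741 for Col11a1 and 0.0707 for Col6a1, each of them without Bcl6-flox M3. The number of collagens called was 2 without Prx1-cre F4, 3 without Bcl6-flox M3, and 4 without Bcl6-flox M1 or without Bcl6-flox F2. Calls over all genes also fell in these fits. Without Prx1-cre F4, 149 of 12651 genes rose and 181 fell, and without Bcl6-flox M3, 133 of 12847 rose and 155 fell. Without Bcl6-flox M1, 153 of 12859 rose and 184 fell, and without Bcl6-flox F2, 155 of 12817 rose and 172 fell. With all libraries, 199 of 12738 genes rose and 251 fell.

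The fibrillar chains spread so widely among the P25 libraries that no direction could be called. Col1a1 had 28115, 48301 and 99631 normalized counts in Prx1-cre libraries, against 9392, 25109 and 132020 in Bcl6-flox libraries, at 0.81 ± 0.57 (adjusted p = 0.578). Col1a2 ranged over 27967 to 105000 normalized counts in Prx1-cre libraries, against 9836 to 142093 in Bcl6-flox libraries, at 0.74 ± 0.57 (adjusted p = 0.615), and Col3a1 over 60473 to 218437 normalized counts in Prx1-cre libraries, against 27048 to 292507 in Bcl6-flox libraries, at 0.54 ± 0.53 (adjusted p = 0.711). In each of the 3 genes the groups overlapped over most of their range. Col5a1 was at 0.57 ± 0.40 (adjusted p = 0.577), Col5a2 at 0.31 ± 0.33 (adjusted p = 0.747), Col14a1 at 0.60 ± 0.68 (adjusted p = 0.762) and Col18a1 at 0.20 ± 0.17 (adjusted p = 0.661). Among the type VI chains, Col6a2 was at 0.83 ± 0.24 (adjusted p = 0.0693) and Col6a3 at 0.64 ± 0.27 (adjusted p = 0.267); Col6a6, with 163, 374 and 769.9 normalized counts in Prx1-cre libraries, against 44.96, 59.1 and 503 in Bcl6-flox libraries, was at 1.86 ± 0.55 (adjusted p = 0.0832). The anchoring fibril collagen Col7a1, at -0.80 ± 0.23 (adjusted p = 0.0731), also missed the threshold.

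The 6 libraries with the highest fibroblast and progenitor scores also had the highest Col1a1 values at P25. The score was 9.13 to 10.48 in Prx1-cre libraries, against 8.43 to 10.79 in Bcl6-flox libraries. Of its 15 markers 1 rose, Dlk1, and their summed normalized counts ran over 71291 to 112880 in Prx1-cre libraries, against 63724 to 126350 in Bcl6-flox libraries with no marker at 0. The score was above 9.7 in the 6 libraries named before, 4 of them Prx1-cre and 2 Bcl6-flox. With those 6 left out, a setting chosen after seeing the data, 8 of 35 collagens rose and none fell (limma; 3.01% of all 12717 genes passed, 1.68% up and 1.33% down). Col12a1 was then at 1.87 ± 0.15 (adjusted p = 0.000213), Col6a1 at 0.95 ± 0.16 (adjusted p = 0.0116), Col4a2 at 0.68 ± 0.12 (adjusted p = 0.0179) and Col4a1 at 0.66 ± 0.15 (adjusted p = 0.0434), all of them again called. Col6a2, Col6a3, Col6a6 and Col28a1, a type VI-related collagen, were called there too, at 0.93 ± 0.20 (adjusted p = 0.0392), 0.75 ± 0.15 (adjusted p = 0.0257), 2.15 ± 0.24 (adjusted p = 0.00147) and 0.93 ± 0.19 (adjusted p = 0.0268). Col22a1 was at 2.64 ± 0.69 (adjusted p = 0.0764), Col15a1 at 0.70 ± 0.18 (adjusted p = 0.0765) and Col11a1 at -0.56 ± 0.20 (adjusted p = 0.185), and missed the threshold with 4 and 5 libraries. With the score as a covariate in all 15 libraries, 9 collagens rose and 1 fell, where 5.65% of all genes passed. With all libraries and no covariate, 3.53% of all genes passed. Of 11 macrophage markers none passed, with summed normalized counts of 8184 to 33194 in Prx1-cre libraries, against 4048 to 35330 in Bcl6-flox libraries. Of 9 adipocyte markers 1 fell and of 9 Schwann cell markers 1 fell, and no endothelial, mural or skeletal muscle marker passed; the part of any cell type in the collagen values was not tested.

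**Figure D4:**
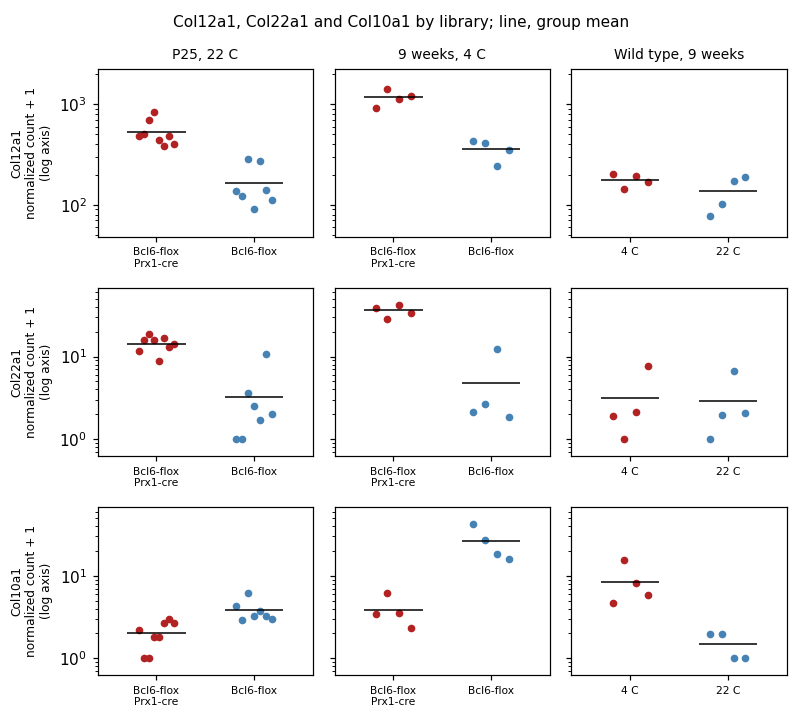
Normalized counts plus 1 on a log axis for Col12a1, Col22a1 and Col10a1 in every library at P25, at 9 weeks and 4 C, and in adult wild-type mice; points are libraries and lines are means. Col12a1 separates the 2 Bcl6 genotypes without overlap at both ages, and Col10a1 is lower in Prx1-cre libraries at 9 weeks.

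**Figure D5:**
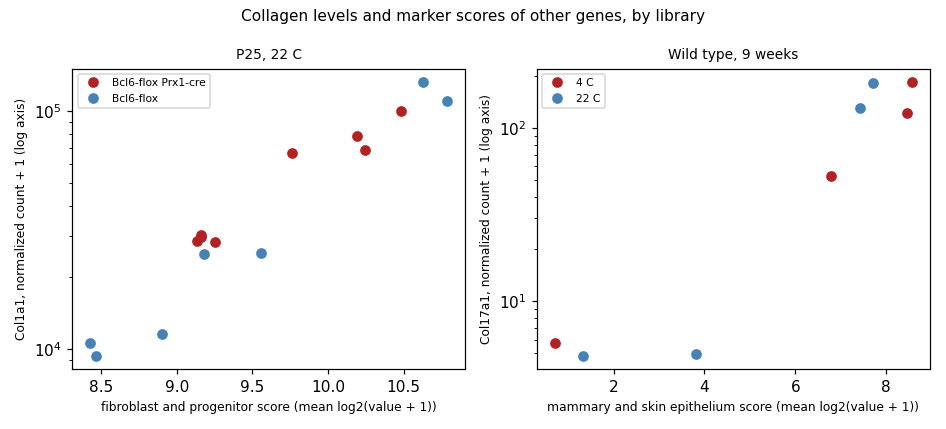
Normalized counts plus 1 on a log axis against marker scores. Left, Col1a1 against the fibroblast and progenitor score in the 15 libraries at P25. Right, Col17a1 against the mammary and skin epithelium score in the 8 adult wild-type libraries. The 6 P25 libraries with a score above 9.7 hold the highest Col1a1 values of both genotypes.

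Few companion genes passed at P25, where 1.56% of all genes tested rose and 1.97% fell. Of 24 genes of collagen biosynthesis and secretion 1 rose, P4hb, at 0.41 ± 0.098 (adjusted p = 0.0294), with a list median of 0.21. Of 13 processing genes 1 rose, Tgm2, a crosslinking transglutaminase, at 0.39 ± 0.094 (adjusted p = 0.0318). Of 16 fibril-associated genes 3 rose: Thbs1, a thrombospondin, at 1.22 ± 0.16 (adjusted p = 0.000282), Bgn at 0.99 ± 0.22 (adjusted p = 0.0186) and Tnc at 0.86 ± 0.19 (adjusted p = 0.0187). Nid2 was the 1 basement membrane partner of 14 that rose, at 1.20 ± 0.13 (adjusted p = 3.27e-05), and Mmp12 the 1 degrading enzyme of 9, at 1.49 ± 0.19 (adjusted p = 0.000222). None of 7 collagen receptors passed.

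Whether the genotype effect differed between 9 weeks at 4 C and P25 at 22 C was tested on the difference of the log2 fold changes, 9 weeks minus P25, with a t reference over the 12487 genes tested in both tables. None of 32 collagens passed by limma estimates and this test, where 0.304% of all genes passed. An unadjusted p under 0.05 was found for 6 collagens, but no share of all genes at that threshold is given to set beside it. The smallest p belonged to Col18a1, with 1.08 at 9 weeks and 0.20 at P25, a difference of 0.89 ± 0.24 (adjusted p = 0.149). Col12a1 had 1.72 at 9 weeks and 1.75 at P25, a difference of -0.030 ± 0.32 (adjusted p = 0.991), and Col22a1 had 3.42 at 9 weeks and 2.62 at P25, a difference of 0.80 ± 0.73 (adjusted p = 0.804). Col1a1 had 1.75 at 9 weeks and 0.81 at P25, a difference of 0.95 ± 0.61 (adjusted p = 0.697), whose standard error reflects the spread at P25. A normal reference called 1 collagen and 166 of 12487 genes. Without Bcl6-flox replicate 3 at 9 weeks 2 collagens and 325 of 12506 genes were called. Age, temperature, table and the share of Xist-high libraries change together in this difference and cannot be told apart. At 9 weeks all 4 libraries of each genotype were Xist-high. At P25 this held for 4 of 8 Prx1-cre and 3 of 7 Bcl6-flox libraries.

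In adult wild-type mice the comparison of 4 C with 22 C asks what cold exposure does to the same genes. Col15a1, the type VI chains Col6a2 and Col6a3 and the type V chain Col5a3 fell at 4 C. The large type I and III transcripts had lower means at 4 C but did not pass. Of 32 collagens tested none rose and 4 fell, where 4.47% of all 12118 genes tested passed, 2.03% up and 2.44% down. The median log2 fold change was -0.45 over the collagens, against 0.02 over all genes, with -0.97 in the fibrillar, -0.21 in the network, 0.06 in the FACIT and -0.68 in the other class.

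Col15a1 had 582, 1087, 959 and 1115 normalized counts at 4 C, against 2851, 3595, 2602 and 3998 at 22 C. Col15a1 differed by a log2 fold change of -1.82 ± 0.23 (SE; adjusted p = 0.011). All 4 libraries at 4 C lay below all 4 at 22 C, and the gene passed in 8 of 8 fits with a library left out. Col6a3 had 1086, 886, 1529 and 1667 normalized counts at 4 C, against 2191, 3307, 6395 and 6468 at 22 C. Col6a3 differed by a log2 fold change of -1.73 ± 0.37 (SE; adjusted p = 0.0436). Col6a2 had 905, 841, 1231 and 1744 normalized counts at 4 C, against 2033, 3066, 4494 and 4605 at 22 C. Col6a2 differed by a log2 fold change of -1.57 ± 0.32 (SE; adjusted p = 0.0374). In both type VI chains the lowest library at 22 C was above the highest at 4 C. Col5a3 had 1569, 1548, 1125 and 1876 normalized counts at 4 C, against 3367, 4589.7, 2546 and 3776 at 22 C. Col5a3 differed by a log2 fold change of -1.21 ± 0.21 (SE; adjusted p = 0.027). These groups did not overlap either, but the calls were thin: Col5a3 and Col6a2 passed in 2 of 8 fits with a library left out and Col6a3 in 1 of 8, with adjusted p up to 0.0917, 0.119 and 0.129 in that order, each highest without 4 C replicate 1. The count of called collagens was 1 without 4 C replicate 1, 2 or 3 or without 22 C replicate 2 or 4, and 2 without 22 C replicate 3. Calls fell over all genes too, to between 36 and 356 with 1 library left out, against 542 of 12118 with all libraries. The loss of calls was thus not particular to collagens. The other common type VI chain, Col6a1, was at -1.001 ± 0.35 (adjusted p = 0.13), with 1279 to 2459.9 normalized counts at 4 C, against 2060.5 to 5393 at 22 C.

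Col3a1 had 4603, 4756, 9636 and 10482 normalized counts at 4 C, against 11690.2, 17480.3, 49959 and 38652 at 22 C, at -1.87 ± 0.51 (adjusted p = 0.072). Col1a1 had 1327, 914, 3512 and 3809.8 normalized counts at 4 C, against 3379.8, 5707, 19036 and 12088 at 22 C, at -2.02 ± 0.64 (adjusted p = 0.1). Within each group the Xist-high replicates 3 and 4 had the higher values of both genes, and for Col1a1 they reached from the 4 C group into the range of the Xist-low libraries at 22 C. The log2 difference of 4 C minus 22 C for Col1a1 was -2.05 among Xist-high and -1.99 among Xist-low libraries, with 2 libraries against 2 in each, and for Col3a1 it was -2.13 among Xist-high and -1.61 among Xist-low libraries. For Col15a1 it was -1.64 among Xist-high and -2.01 among Xist-low libraries. With Xist status as a covariate 13 collagens fell and none rose, where 18.4% of all genes passed, 10.1% up and 8.29% down. Col1a1 was then at -2.02 ± 0.21 (adjusted p = 0.00188), Col3a1 at -1.87 ± 0.19 (adjusted p = 0.00159), Col1a2 at -1.52 ± 0.22 (adjusted p = 0.00519) and Col6a1 at -1.001 ± 0.13 (adjusted p = 0.00412). With the replicate number as a block 12 collagens were called and 13.7% of all genes passed, though no label says that the numbers pair the libraries. In this balanced layout neither the covariate nor the block can change a fold change, only its standard error. The block also contains the Xist split, since replicates 3 and 4 were Xist-high in both groups, so it is no separate test. Without the covariate Col1a2 was at -1.52 ± 0.56 (adjusted p = 0.144), Col5a1 at -0.97 ± 0.34 (adjusted p = 0.125) and Col5a2 at -0.53 ± 0.33 (adjusted p = 0.37).

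Network and FACIT collagens gave no call. Col4a1 had 8171, 8652, 7149.8 and 9585 normalized counts at 4 C, against 8936, 12388, 9668 and 12362 at 22 C, at -0.36 ± 0.17 (adjusted p = 0.242), and Col4a2 ranged over 5014 to 6539 normalized counts at 4 C, against 5508 to 7423 at 22 C, at -0.15 ± 0.15 (adjusted p = 0.584). Col18a1 was at -0.36 ± 0.17 (adjusted p = 0.253), Col12a1 at 0.46 ± 0.29 (adjusted p = 0.379) and Col14a1 at -0.84 ± 0.72 (adjusted p = 0.529). Col20a1, a minor FACIT collagen, was at -1.37 ± 0.34 (adjusted p = 0.0581), with groups that did not overlap. Col10a1 stayed under the filter and was not tested; it had 3.69, 14.4, 7.09 and 4.87 normalized counts at 4 C, against 0.983, 0.960, 0 and 0 at 22 C. All 4 values at 4 C were above all 4 at 22 C, with 3 of the 4 under the filter of 10. Col17a1, a hemidesmosome collagen of epithelia, ranged over 4.76 to 182 normalized counts at 4 C, against 3.86 to 180.3 at 22 C, with the high values in the libraries with a high score of mammary and skin epithelium, which ran over 0.70 to 8.56 at 4 C, against 1.32 to 7.71 at 22 C.

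Companion genes passed in small numbers and in both directions at 4 C, where 2.03% of all genes tested rose and 2.44% fell. Of 23 biosynthesis genes 3 fell (list median -0.31): Serpinh1, the procollagen chaperone, at -1.01 ± 0.17 (adjusted p = 0.0242), Sparc, a collagen-binding glycoprotein, at -1.04 ± 0.20 (adjusted p = 0.0337), and Crtap, a partner of prolyl 3-hydroxylase, at -0.63 ± 0.10 (adjusted p = 0.0231). Of 13 processing genes Pcolce, the enhancer of procollagen C-proteinase, fell, at -1.58 ± 0.30 (adjusted p = 0.033), and Lox rose, at 0.88 ± 0.17 (adjusted p = 0.0328). Of 15 basement membrane partners 3 fell: Hspg2, perlecan, at -0.94 ± 0.16 (adjusted p = 0.0242), Nid2 at -0.75 ± 0.17 (adjusted p = 0.0452) and Lamb2 at -0.69 ± 0.14 (adjusted p = 0.0374). Of 15 fibril-associated genes Dpt, dermatopontin, fell, at -0.86 ± 0.17 (adjusted p = 0.0382), and of 9 degrading enzymes Mmp11 rose, at 2.07 ± 0.40 (adjusted p = 0.0332); none of 8 receptors passed. None of 14 fibroblast and progenitor markers and none of 11 macrophage markers passed, and the fibroblast and progenitor score was 8.04 to 9.15 at 4 C, against 8.65 to 9.87 at 22 C, with summed normalized counts of 113560 to 123310 at 4 C, against 99838 to 145200 at 22 C and no marker at 0. Some vessel markers fell as well. Of 9 endothelial markers 1 fell, Cldn5, at -1.23 ± 0.28 (adjusted p = 0.0466), with summed normalized counts of 4667 to 5853 at 4 C, against 6195 to 6735 at 22 C. Of 10 mural markers 2 fell, Rgs5, at -1.09 ± 0.14 (adjusted p = 0.0109), and Cspg4, at -1.44 ± 0.33 (adjusted p = 0.0479), with summed normalized counts of 4308 to 6984 at 4 C, against 7012 to 9528 at 22 C. Neither sum overlapped between the temperatures, and no marker of these lists was at 0. Of 9 Schwann cell markers 4 fell, with summed normalized counts of 3049 to 3702 at 4 C, against 6138 to 7265 at 22 C. With the fibroblast and progenitor score as a covariate 7 collagens rose and 8 fell, where 24.9% of all genes passed; the part of any cell type in the falls at 4 C was not tested.

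Housing at 30 C, near the thermoneutral zone of mice, was compared with 22 C at P28, and no collagen passed in either direction. Of 34 collagens tested by limma 0 were called, and 3 had an unadjusted p under 0.05, where 4.45% of all 12283 genes tested were called, 1.29% up and 3.17% down, and 19.4% had an unadjusted p under 0.05. The median log2 fold change was 0.05 over the collagens, against 0.01 over all genes, and -0.02 in the fibrillar, -0.23 in the network, 0.13 in the FACIT and 0.23 in the other class. In the same libraries Ucp1, the thermogenic proton carrier, was at -4.06 ± 0.37 (adjusted p = 0.0017).

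Col1a1 had 15963, 25837, 15649.7 and 34124 normalized counts at 30 C, against 31889, 35839, 10712 and 20431 at 22 C, at -0.046 ± 0.40 (adjusted p = 0.974). Col3a1 had 39254, 56052, 39549.6 and 68129 normalized counts at 30 C, against 60329.8, 70321, 29369 and 50459 at 22 C, at -0.021 ± 0.29 (adjusted p = 0.982), and Col1a2 was at 0.053 ± 0.35 (adjusted p = 0.965). The 2 groups covered nearly the same range, and the lowest value of Col1a1 was in 22 C replicate 3. Col5a1 was at -0.12 ± 0.23 (adjusted p = 0.848) and Col5a2 at 0.048 ± 0.19 (adjusted p = 0.932). The smallest p-values were those of Col16a1, a minor FACIT collagen, with 285, 359.6, 315 and 348 normalized counts at 30 C, against 311, 184, 176 and 228 at 22 C at 0.57 ± 0.17 (adjusted p = 0.106), and of Col5a3, with 2985, 3857, 3192 and 3977 normalized counts at 30 C, against 5626, 5875, 3419 and 5615 at 22 C at -0.53 ± 0.18 (adjusted p = 0.14). The value of Col5a3 in 22 C replicate 3 lay far below the other 3 at 22 C. Without that library limma called Col5a3, at -0.71 (adjusted p = 0.00756), and Col4a2, at -0.45 (adjusted p = 0.0443). Of 12437 genes, 186 rose and 528 fell in that fit. Without 22 C replicate 1, which held the highest Col16a1 value at 22 C, Col16a1 was called, at 0.74 (adjusted p = 0.028). Of 12466 genes, 81 rose and 224 fell there. Leaving out the library nearest the other group widens a difference by construction, so these calls are no support for Col5a3 or Col16a1. With the fibroblast and progenitor score as a covariate Col5a3 was also called, at -0.68 ± 0.11 (adjusted p = 0.0162), where 5.21% of all genes passed.

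The basement membrane chain Col4a2 was at -0.34 ± 0.13 (adjusted p = 0.199) and Col4a1 at -0.23 ± 0.14 (adjusted p = 0.426). Type VI chains were at -0.18 ± 0.16 (adjusted p = 0.602) for Col6a1, -0.38 ± 0.19 (adjusted p = 0.311) for Col6a2 and -0.24 ± 0.14 (adjusted p = 0.396) for Col6a3, and Col6a4 was at 0.38 ± 0.22 (adjusted p = 0.395). Col15a1 was at -0.23 ± 0.15 (adjusted p = 0.476), Col18a1 at 0.048 ± 0.12 (adjusted p = 0.888), Col12a1 at 0.014 ± 0.20 (adjusted p = 0.983), Col14a1 at 0.22 ± 0.23 (adjusted p = 0.688) and Col17a1 at 0.83 ± 0.42 (adjusted p = 0.322). An adjusted p above the threshold does not show that these levels were alike at the 2 temperatures. Over all genes tested here 1.29% rose and 3.17% fell. None of 24 biosynthesis genes, 12 processing genes, 7 receptors or 14 basement membrane partners passed; Thbs2, a thrombospondin of collagen fibrils, rose among 15 fibril-associated genes, at 0.72 ± 0.13 (adjusted p = 0.0209), and Mmp14, a membrane collagenase, among 9 degrading enzymes, at 0.38 ± 0.080 (adjusted p = 0.0345). Of 11 macrophage markers 3 rose, with summed normalized counts of 7189.6 to 8889 at 30 C, against 4874 to 6809.8 at 22 C. Among markers of adipocytes, fibroblasts and progenitors and mural cells 1 rose in each list, and 1 Schwann cell marker fell. The median log2 fold changes of these lists were -0.16, 0.06, 0.20 and 0.31 in that order. The called adipocyte and Schwann cell markers thus went against the median of their own list.

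Mice with floxed TrkA and Th-cre were compared at P28 and 22 C with the 4 wild-type libraries that also serve the temperature comparison, so the 2 comparisons share their 22 C libraries and are not independent. Of 30 collagens tested 1 fell, Col28a1, and none rose, where 2.66% of all 11899 genes tested passed, 1.34% up and 1.32% down. The median log2 fold change over the 30 collagens was -0.11. Col28a1, which Schwann cells of peripheral nerve are known to make, had 51.1, 49.7, 62.4 and 50.8 normalized counts in TrkA-flox Th-cre libraries, against 75.9, 83.8, 87.6 and 80.8 in wild-type libraries. Col28a1 differed by a log2 fold change of -0.61 ± 0.14 (SE; adjusted p = 0.0456). The groups did not overlap, with TrkA-flox Th-cre replicate 3 the highest of its group. The call passed in 1 of 8 fits with a library left out, that without TrkA-flox Th-cre replicate 4 (adjusted p = 0.0401), and the others gave adjusted p up to 0.128, so 0 collagens were called in those 7. Over all genes, 93 to 870 were called with 1 library left out, against 317 with all libraries. Of 9 Schwann cell markers 1 fell, with summed normalized counts of 2538 to 3563 in TrkA-flox Th-cre libraries, against 3688 to 5738 in wild-type libraries, none of the markers at 0; their part in the value of Col28a1 was not tested.

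Col12a1 had 121, 129.6, 102 and 107 normalized counts in TrkA-flox Th-cre libraries, against 83.2, 89.7, 75.9 and 67.5 in wild-type libraries, at 0.53 ± 0.14 (adjusted p = 0.0712); its groups did not overlap but it did not pass. Col16a1 was at 0.62 ± 0.23 (adjusted p = 0.185), Col6a5 at 0.73 ± 0.32 (adjusted p = 0.257), Col15a1 at -0.44 ± 0.17 (adjusted p = 0.198) and Col6a3 at -0.27 ± 0.14 (adjusted p = 0.341). Of the fibril chains, Col1a1 had 21093, 28113, 17409.5 and 16577 normalized counts in TrkA-flox Th-cre libraries, against 28117, 31339.6, 9490.4 and 17946 in wild-type libraries, at 0.047 ± 0.36 (adjusted p = 0.964). Col3a1 was at 0.073 ± 0.31 (adjusted p = 0.932), Col1a2 at 0.13 ± 0.33 (adjusted p = 0.882), Col5a1 at 0.079 ± 0.20 (adjusted p = 0.876) and Col5a2 at 0.26 ± 0.16 (adjusted p = 0.424). The wild-type libraries spread more widely than the TrkA-flox Th-cre libraries for Col1a1, and enclosed them. Among basement membrane and type VI collagens, Col4a1 was at -0.21 ± 0.15 (adjusted p = 0.504), Col4a2 at -0.23 ± 0.13 (adjusted p = 0.395), Col6a1 at -0.11 ± 0.14 (adjusted p = 0.727), Col6a2 at -0.31 ± 0.16 (adjusted p = 0.345) and Col18a1 at -0.24 ± 0.19 (adjusted p = 0.524); Col14a1 was at 0.030 ± 0.20 (adjusted p = 0.961). Single companion genes passed: Creb3l1, a factor that drives collagen secretion genes, fell, at -0.68 ± 0.15 (adjusted p = 0.0476), Adamts2 rose, at 0.63 ± 0.12 (adjusted p = 0.0253), Thbs2 rose, at 0.97 ± 0.18 (adjusted p = 0.0231), and Nid2 fell, at -0.70 ± 0.15 (adjusted p = 0.0395), of 23 biosynthesis, 12 processing, 15 fibril-associated and 14 basement membrane genes. Over all genes tested in this comparison 1.34% rose and 1.32% fell. None of 8 receptors or 9 degrading enzymes passed, and of 10 macrophage markers 6 rose, with summed normalized counts of 7910.3 to 9804 in TrkA-flox Th-cre libraries, against 4319 to 5983 in wild-type libraries; the part of macrophages in these values was not tested. Of 9 skeletal muscle markers 2 rose, Myh2, at 3.22 ± 0.49 (adjusted p = 0.0118), and Ttn, at 1.89 ± 0.43 (adjusted p = 0.0475), with summed normalized counts of 1084 to 5899.5 in TrkA-flox Th-cre libraries, against 289.8 to 842 in wild-type libraries; these sums did not overlap. With the muscle score as a covariate Col28a1 was at -0.64 ± 0.21 (adjusted p = 0.327), and with Xist status at -0.57 ± 0.14 (adjusted p = 0.0798). Of 10 mural markers 2 fell, Kcnj8, at -0.77 ± 0.16 (adjusted p = 0.0373), and Notch3, at -0.56 ± 0.13 (adjusted p = 0.0476), with summed normalized counts of 3678 to 4693 in TrkA-flox Th-cre libraries, against 4342 to 5756 in wild-type libraries; these sums overlapped. None of 15 fibroblast and progenitor markers passed, but their summed normalized counts of 28612 to 31784 in TrkA-flox Th-cre libraries, against 33913 to 42460 in wild-type libraries did not overlap. The score of the same list did overlap, at 8.89 to 9.00 in TrkA-flox Th-cre libraries, against 8.71 to 9.00 in wild-type libraries. The median log2 fold change of these markers was 0.17, so the lower sums do not hold for the list as a whole. Of 9 adipocyte markers 1 fell, though the median log2 fold change of that list was 0.05, and no endothelial, lymphocyte or epithelial marker passed. The part of these cell types in the Col28a1 result was not tested. With the fibroblast and progenitor score as a covariate no collagen passed by limma, where 2.73% of all genes did, and Col28a1 was at -0.59 ± 0.14 (adjusted p = 0.0619).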

How the data were processed

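The deposited signal values are counts per gene that the authors normalized within each of 5 tables; per the submitters' processing notes the tools were kallisto and DESeq2 and the build mm10, with no version or setting named. The 4 wild-type libraries present in both P28 tables differed between them by a median ratio of 1.13 to 1.14. Within a library the ratio varied between genes, with percentile 1 at 1.024 to 1.038 and percentile 99 at 1.255 to 1.274. The scaling is thus partly specific to each gene. Whole reads could not be recovered, so no count model was used.

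Each table was fitted with limma 3.58.1 (R 4.3.3; trend) on log2(value + 1), for genes of at least 10 in as many libraries as the smaller group, with Benjamini-Hochberg adjustment over all genes tested and a threshold of 0.05. Changes of low genes are understated on this scale. Of 22622 gene identifiers 21 matched no symbol. Library codes at P25 match no sample title. The test was checked on simulated data. The level of the gene targeted in the Th-cre mice is not reported here. Named genes were those called (or the 6 smallest p), 14 abundant collagens and up to 4 per companion list; Col5a3 in adult Bcl6 mice, Col6a6, Col7a1 and Col28a1 at P25, Col4a6, Col7a1, Col10a1 and Col17a1 in adult wild-type mice, and collagens called with 1 library left out were named after their values were seen. Members and lists were chosen with earlier results of these data known. Alternatives were TMM scaling, other filters and pseudocounts, covariates, a replicate block and each library left out. Exons came from GENCODE M21 (mm10) and promoter windows from RefSeq. Figures were drawn with matplotlib 3.10.9.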

Additional observations from a re-analysis of the deposited data

Results flagged for a closer look

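Of 170 groups of collagen values, 2 held a library far from the others by Dixon's criterion, which chance meets in about 1 group in 20. Col5a3 had 3419 normalized counts in wild-type replicate 3 at P28 and 22 C, below the other 3 libraries of that group. Col28a1 had 62.45 normalized counts in TrkA-flox Th-cre replicate 3, above the other 3 libraries of that group.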

How the results depend on the processing

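With 1 library left out, called collagens numbered 0 to 2 at 30 C against 22 C, 0 to 1 for TrkA-flox Th-cre, 2 to 9 at P25, 15 to 24 in adult Bcl6 mice, 1 to 3 at 4 C against 22 C, and 0 to 2 for the difference of the Prx1-cre effect. All genes called numbered 176 to 714, 93 to 870, 288 to 666, 1055 to 3548 and 36 to 356 for the same 5 comparisons in that order, and 14 to 325 for the difference. With the replicate number as a block, 12 collagens and 1666 genes were called at 4 C against 22 C, 0 collagens for TrkA-flox Th-cre, 236 genes at 30 C against 22 C and 1171 genes in adult Bcl6 mice, where Col11a2 was lost and Col15a1 and Col5a3 were gained; it moved no other of these counts by more than 1.5 times. Correlations of same-numbered libraries ran from -0.66 to 0.77. In no comparison was every pair above 0.1, or did every library correlate best with its own number. At 4 C against 22 C they were -0.26, 0.77, 0.50 and 0.51 for replicates 1 to 4. No label pairs the libraries, and correlations over so few libraries cannot settle whether the numbers do. At P25 no block could be fitted, since the column codes match no title. An Xist covariate called 0 collagens for TrkA-flox Th-cre and 13, with 2226 genes, at 4 C against 22 C. A muscle covariate called 0 collagens and 22 genes for TrkA-flox Th-cre, 4 collagens at P25, 89 genes at 30 C against 22 C, and 11 collagens and 1902 genes at 4 C against 22 C. A fibroblast covariate, chosen after seeing the data, called 1 collagen at 30 C against 22 C, 0 for TrkA-flox Th-cre, 720 genes at P25, and 15 collagens and 3023 genes at 4 C against 22 C. Without the filter on low values, TrkA-flox Th-cre gave 0 collagens and 4 C against 22 C gave 356 genes. With a normal reference the difference of the Prx1-cre effect called 1 collagen and 166 of 12487 genes. For 30 C against 22 C, the sign turned with an Xist covariate, Col1a1 at 0.22, Col3a1 at 0.15 and Col5a1 at 0.015; with a muscle covariate, Col1a2 at -0.22 and Col5a2 at -0.085; with a fibroblast covariate, Col1a2 at -0.19, Col5a2 at -0.097 and Col18a1 at -0.017. For TrkA-flox Th-cre against wild type, the sign turned with an Xist covariate, Col1a1 at -0.15, Col1a2 at -0.061, Col3a1 at -0.071, Col5a1 at -0.027 and Col14a1 at -0.046; with a muscle covariate, Col6a1 at 0.053; with a fibroblast covariate, Col1a1 at -0.10, Col1a2 at -0.0090, Col3a1 at -0.039, Col5a1 at -0.011 and Col14a1 at -0.065. For 4 C against 22 C, the sign turned with a fibroblast covariate, Col14a1 at 0.32. For 30 C against 22 C the range with 1 library left out included both signs for Col1a1 (-0.40 to 0.18), Col1a2 (-0.26 to 0.27), Col3a1 (-0.28 to 0.14), Col5a1 (-0.34 to 0.0063), Col5a2 (-0.14 to 0.16), Col12a1 (-0.11 to 0.16), Col14a1 (-0.020 to 0.35), Col18a1 (-0.063 to 0.16) and Col3a1 to Col1a1 (-0.056 to 0.12). For TrkA-flox Th-cre against wild type the range with 1 library left out included both signs for Col1a1 (-0.30 to 0.27), Col1a2 (-0.19 to 0.34), Col3a1 (-0.18 to 0.23), Col5a1 (-0.14 to 0.20), Col14a1 (-0.21 to 0.16), Col3a1 to Col1a1 (-0.056 to 0.12) and Col4a1 to Col4a2 (-0.0063 to 0.035). For Prx1-cre against Bcl6-flox at P25 the range with 1 library left out included both signs for Col6a1 to Col6a2 (-0.0051 to 0.070). For Prx1-cre against Bcl6-flox at 9 weeks the range with 1 library left out included both signs for Col6a1 to Col6a2 (-0.024 to 0.048). For 4 C against 22 C the range with 1 library left out included both signs for Col3a1 to Col1a1 (-0.049 to 0.26). None of these values passed the test in either direction. The cause of these changes was not tested. Groups of 4 libraries and an unknown read depth limit the precision.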

Other observations

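Ratios of chains that share a molecule or a fibril were compared within each library, a measure chosen after seeing the data. In adult Bcl6 mice the ratio of Col1a1 to Col1a2 was 0.683 to 0.870 in Prx1-cre libraries, against 0.502 to 0.612 in Bcl6-flox libraries, and that of Col3a1 to Col1a1 was 2.18 to 2.38 in Prx1-cre libraries, against 3.40 to 5.14 in Bcl6-flox libraries. The ratio of Col4a1 to Col4a2, genes whose spans overlap at their starts, was 1.38 to 1.47 in Prx1-cre libraries, against 1.28 to 1.36 in Bcl6-flox libraries in adult Bcl6 mice and 1.75 to 1.79 at 30 C, against 1.61 to 1.68 at 22 C at P28, and it ran the other way in adult wild-type mice, at 1.40 to 1.47 at 4 C, against 1.62 to 1.75 at 22 C. The ratio of Col6a1 to Col6a2 was 1.41 to 1.86 at 4 C, against 0.955 to 1.20 at 22 C in adult wild-type mice, 1.18 to 1.32 at 30 C, against 1.04 to 1.14 at 22 C at P28, and 1.19 to 1.31 in TrkA-flox Th-cre libraries, against 1.04 to 1.14 in wild-type libraries. The comparisons at P28 share their 22 C libraries. These 8 are the ratios whose groups did not overlap; in the other 12 they overlapped. Over 20 such exact permutation tests (two-sided, n = 4 and 4 except 8 and 7 at P25) none passed the Benjamini-Hochberg adjustment, and the lowest adjusted p was 0.0635; with 4 against 4 libraries the smallest p possible is 0.0286.

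Collagens of epithelia varied together across the adult wild-type libraries without a call. Col7a1, which anchors basement membrane to dermis, had 127, 28.7, 269.7 and 348 normalized counts at 4 C, against 43.9, 52.4, 234 and 201 at 22 C, and Col4a6, a type IV chain, had 113, 1.18, 295 and 247 normalized counts at 4 C, against 7.73, 2.84, 166 and 126 at 22 C. In both genes replicates 3 and 4 of each group, the Xist-high libraries, held the highest values, and the Xist-low 4 C replicate 1 came next. The score of mammary and skin epithelium was 6.79, 0.70, 8.56 and 8.46 in 4 C replicates 1 to 4, against 3.81, 1.32, 7.71 and 7.43 in 22 C replicates 1 to 4; the part of that epithelium in these values was not tested.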
